A study of Mus musculus with 6 samples.

Results

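Erythroid miRNAs in mouse liver were described here through every entry of the miRNA table whose name begins with mmu-miR-451a, mmu-miR-144- or mmu-miR-486. The rule found 6 of the 1039 entries, of which 762 carry mouse names: mmu-miR-451a, mmu-miR-144-3p, mmu-miR-144-5p, mmu-miR-486b-5p, mmu-miR-486b-3p and mmu-miR-486a-3p. The members were chosen by name rather than by their values, although earlier results of these data were known. They were followed across all 6 libraries.

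Small RNA was sequenced from the livers of wild type ICR mice, an outbred stock, aged 30 weeks. All mice of both groups were fed HFD (high-fat diet), and after 12 weeks of it were gavaged for 8 weeks. The J group (n = 3) received JTXK granule, a Chinese herbal formula, and the M group (n = 3) sterile water. A group on standard diet was not analysed here, and whether the livers were rinsed of blood before freezing is not given in the sources used here.

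miR-451a and miR-144 are made from neighbouring hairpins that GATA1, the master transcription factor of red-cell development, switches on together. miR-486 lies within Ank1, the gene of the red-cell membrane protein ankyrin, and is also known from muscle. All are abundant in maturing and circulating red blood cells and scarce in hepatocytes, so their level in a whole-liver library is often read as a gauge of its red-cell content, although in bulk tissue fewer cells of a type and less RNA per cell cannot be told apart.

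The mature sequences of the miR-144 and miR-451a locus are shown with that of mmu-miR-101a-3p, a liver miRNA whose seed is close to that of mmu-miR-144-3p. They are given 5′ to 3′ from RefSeq (GRCm38.p6), with the seed, bases 2 to 8, in capitals.
mmu-miR-451a: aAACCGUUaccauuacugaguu
mmu-miR-144-3p: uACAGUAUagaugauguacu
mmu-miR-144-5p: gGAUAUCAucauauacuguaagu
mmu-miR-101a-3p: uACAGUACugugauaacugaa

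mmu-miR-144-3p and mmu-miR-101a-3p are identical from base 1 to base 7 and differ at the last seed base. mmu-miR-451a and mmu-miR-144-5p share no seed with the others shown. mmu-miR-451a differs from most miRNAs in how it is made, since AGO2 rather than Dicer cuts its short hairpin, and the hairpins show the difference. In both, which are also RefSeq sequences of GRCm38.p6, the capitals mark the mature miRNAs.
Mir451a: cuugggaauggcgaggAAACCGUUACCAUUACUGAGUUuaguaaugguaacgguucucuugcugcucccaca
Mir144: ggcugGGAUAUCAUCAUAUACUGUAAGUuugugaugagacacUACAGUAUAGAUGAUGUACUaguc

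The mature mmu-miR-451a fills bases 17 to 38 of its 72-base hairpin and has no partner arm in the table. Mir144 carries a miRNA on each arm of its 66 bases, at bases 6 to 28 (mmu-miR-144-5p) and 43 to 62 (mmu-miR-144-3p). In GRCm38, Mir144 lies on the plus strand at chr11:78073005-78073070 and Mir451a at chr11:78073170-78073241, with 99 bases between them. Both lie between protein-coding genes: Eral1, on the minus strand, ends 134 bases beyond the pair, and Flot2 ends 12570 bases before it. Mir451b occupies the interval of Mir451a on the opposite strand, and the table has 0 entries for it. Mir486 is on another chromosome, at chr8:23142555-23142682, inside the gene Ank1 (chr8:22974844-23150497, plus strand), where no Ank1 exon overlaps it. The miR-486a and miR-486b copies are nearly identical, so the division of reads between them is uncertain, and mmu-miR-486a-5p has no entry of its own.

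The 6 libraries held 2626353 to 4314134 miRNA reads, and 1 read corresponded to 0.232 to 0.381 RPM (reads per 1000000 miRNA reads of a library). In M group replicate 1, 26 miRNAs of at least 10 RPM exceeded each of the remaining libraries by 4-fold or more, while J group replicate 3 had 1 such miRNA and the rest had 0. None of the erythroid miRNAs was among them. The sample label of M group replicate 1 starts with MX1, those of the other M group libraries with MX2 and those of the J group with GJ2. What these prefixes stand for was not known here. mmu-miR-122-5p, the hepatocyte miRNA, was the most abundant entry of all 6 libraries, at 208683 to 262490 RPM, and the hepatocyte markers of the liver label were thus present.

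The 3 abundant members, mmu-miR-144-3p, mmu-miR-486b-5p and mmu-miR-451a, made up nearly all of the erythroid reads, and their level differed more between M group mice than between the groups. Values per library are given in the order of replicates 1, 2 and 3 of a group. The 6 members summed to 5854, 6245 and 8687 RPM in the J group mice and to 5925, 3926 and 13121 RPM in the M group mice. As a share of miRNA reads the sum ran from 0.393% in M group replicate 2 to 1.31% in M group replicate 3, so the lowest and the highest library were both M group mice and the J group lay between them. mmu-miR-144-3p supplied 47.8% to 55.5% of the sum and mmu-miR-451a 16.7% to 23.01%.

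mmu-miR-451a stood at 1036, 1202 and 1476 RPM in the J group mice and at 1193, 656 and 3019 RPM in the M group mice. M group replicate 3 was 4.60-fold above M group replicate 2 and 2.04-fold above the next library, and the range of the J group lay inside that of the M group. These levels rested on 2236 to 12967 reads per library. The group means were 1238 ± 222 RPM across J group mice and 1622 ± 1239 RPM across M group mice (SD, n = 3 each). The log2 fold change (J group minus M group, on log2(RPM + 1)) was -0.12 ± 0.51 (SE), with an adjusted p of 0.95 by limma. Its 95% interval, -1.32 to 1.08, spans a fold of 0.401 to 2.11, so a change of up to about that size in either direction was not detectable with these 6 mice.

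mmu-miR-144-3p, whose hairpin neighbours that of mmu-miR-451a, showed the same order of mice at both ends. Its level was 3250, 3373 and 4756 RPM in the J group mice and 2855, 1878 and 6706 RPM in the M group mice. M group replicate 2 was again the lowest and M group replicate 3 the highest, and the group means, 3793 ± 836 and 3813 ± 2552 RPM (SD, n = 3 each), were nearly equal. On the log2 scale the J group minus M group difference was 0.18 ± 0.44 (SE), with a 95% interval of -0.86 to 1.22 and an adjusted p of 0.89 by limma. The value rested on M group replicate 3: without that library the difference was 0.69, past both thresholds of the study (absolute log2 fold change above 0.3 and unadjusted p under 0.05) at an unadjusted limma p of 0.045 and an adjusted p of 0.567, and over the 17 alternatives the adjusted p ran from 0.567 to 0.993. Without M group replicate 2 the difference was -0.23.

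mmu-miR-486b-5p, the main product of the Ank1-embedded hairpin, stood at 1480, 1605 and 2363 RPM in the J group mice and at 1773, 1334 and 3213 RPM in the M group mice. The lowest and the highest mouse were those of the miR-144 and miR-451a locus, although the spread was narrower, 2.41-fold from lowest to highest. The means were 1816 ± 478 and 2106 ± 983 RPM (SD, n = 3 each), and the log2 difference was -0.15 ± 0.35 (SE; 95% interval -0.96 to 0.67; adjusted p of 0.89 by limma).

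The remaining members are less abundant. mmu-miR-144-5p, from the other arm of the miR-144 hairpin, stood at 76.0, 53.6 and 75.9 RPM in the J group mice and at 90.6, 46.6 and 161.6 RPM in the M group mice, on 159 to 694 reads. The groups overlapped, with a log2 difference of -0.38 ± 0.45 (SE) and an adjusted p of 0.79 by limma. mmu-miR-486b-3p ranged from 8.11 to 12.8 RPM across J group mice and from 8.38 to 15.1 RPM across M group mice. mmu-miR-486a-3p ranged from 2.79 to 4.17 RPM across J group mice and from 2.93 to 7.22 RPM across M group mice, on 9 to 31 reads, so its counting intervals overlap between all libraries. The log2 difference of mmu-miR-486b-3p was smaller than its SE, -0.10 ± 0.34 (SE; adjusted p of 0.94 by limma). That of mmu-miR-486a-3p was larger than its SE, -0.44 ± 0.37 (SE; adjusted p of 0.71 by limma). Its limma interval ran from -1.30 to 0.43.

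**Figure D1:**
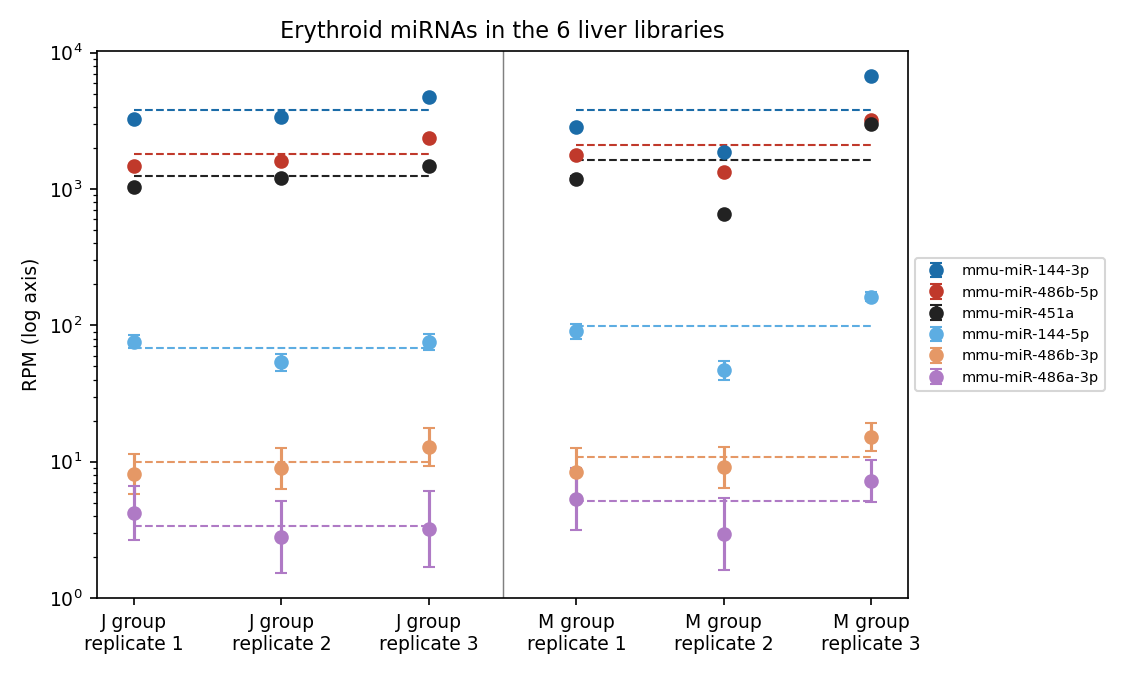
RPM (log axis) of the 6 erythroid miRNAs in each library, with 95% Wilson counting intervals and dashed lines at the arithmetic mean of each group. M group replicate 3 is the highest library for all 6, at 3019 RPM for mmu-miR-451a, and M group replicate 2 is the lowest for the 4 more abundant ones.

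The order of the members was the same in all 6 libraries: mmu-miR-144-3p, mmu-miR-486b-5p, mmu-miR-451a, mmu-miR-144-5p, mmu-miR-486b-3p and mmu-miR-486a-3p. RPM also carries how readily each sequence is ligated and amplified, so this order is one of reads. mmu-miR-144-3p ranked 24 to 42 among the entries of a library, mmu-miR-451a 39 to 73 and mmu-miR-144-5p 115 to 165. The entry of mmu-miR-144-3p names bases 1 to 19 of its 20 and a substitution, A14T, counted from base 1 at the 5′ end with T standing for U. That of mmu-miR-451a names bases 2 to 22 of 22. The sources used here do not say which reads such a name covers, and this limits comparisons of level between miRNAs more than comparisons of a miRNA between libraries.

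Across the table, 29 of 548 miRNAs (5.29%) passed the thresholds of the study, 8 of them higher and 21 lower in the J group, against 0 of the 6 erythroid miRNAs. An adjusted p under 0.05 was reached by 0 miRNAs with limma (smallest 0.42), 0 with edgeR and 2 with DESeq2, neither of them erythroid, and 29 had an unadjusted limma p under 0.05. In 74 of the 548 (13.5%) the libraries of the groups did not overlap, and in 0 of the 6 erythroid ones. The median log2 fold change of the 6 was -0.13, and that of all miRNAs tested was also -0.13 (-0.03 with median-of-ratios scaling and 0.08 with quantile normalization). The sign of the member differences was not stable: without M group replicate 3 those of mmu-miR-451a, mmu-miR-144-5p, mmu-miR-486b-5p and mmu-miR-486b-3p turned positive (0.47, 0.06, 0.21 and 0.15), and mmu-miR-451a, mmu-miR-486b-5p and mmu-miR-486b-3p were also positive with quantile normalization.

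**Figure D2:**
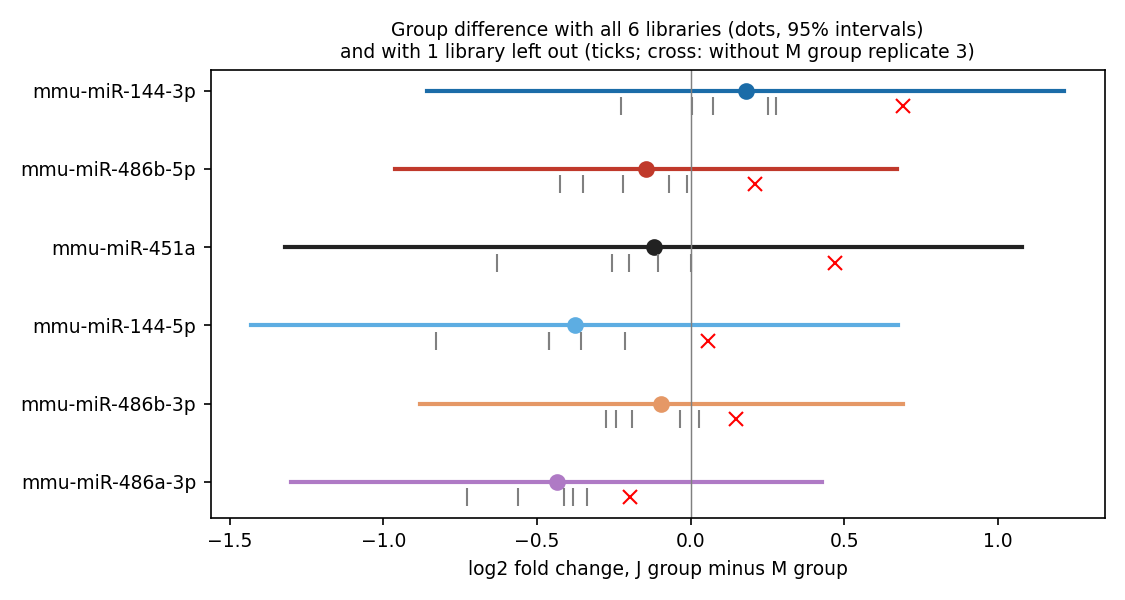
Log2 fold change (J group minus M group, on log2(RPM + 1)) of the 6 erythroid miRNAs with all libraries (dots, lines are 95% intervals) and with 1 library left out (ticks, red crosses without M group replicate 3). Every interval includes 0, and the crosses lie to the right of the dots, at 0.69 for mmu-miR-144-3p.

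The 4 more abundant members had a wider spread between mice in the M group than in the J group. Among the 260 miRNAs with a mean of at least 10 RPM in both groups, the SD of log2(RPM + 1) of mmu-miR-451a within the M group was 1.11, and 17 miRNAs had a larger one, while the median was 0.31. In the J group its SD was 0.26, equal to the median of 0.26. mmu-miR-144-3p had an SD of 0.94 in the M group and 0.30 in the J group, mmu-miR-144-5p 0.89 and 0.29, and mmu-miR-486b-5p 0.65 and 0.36. The difference in spread between the groups was not tested, and with 3 mice each it rests on M group replicates 2 and 3.

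The abundant members varied together from mouse to mouse, including products of different chromosomes. Over the 6 libraries, Pearson's r of log2(RPM + 1) between mmu-miR-451a and mmu-miR-144-3p was 0.96 (exact permutation p of 0.00833, adjusted over the 15 pairs of members 0.0417), and Spearman's rho was 0.94 (exact permutation p of 0.0167, adjusted 0.0833). Without M group replicates 2 and 3, the libraries farthest from the median of mmu-miR-451a, r was 0.79. Between mmu-miR-451a and mmu-miR-486b-5p, which are not neighbours, r was 0.95 (exact permutation p of 0.00556, adjusted 0.0417) with a rho of 0.94 (exact permutation p of 0.0167, adjusted 0.0833), and r was 0.96 without the same libraries. All tests of correlation were two-sided.

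mmu-miR-144-3p and mmu-miR-486b-5p had an r of 0.93 (exact permutation p of 0.0139, adjusted 0.0521), a rho of 0.83 (exact permutation p of 0.0583, adjusted 0.219) and an r of 0.79 without M group replicates 2 and 3. The points of these correlations share a denominator within each library and are few, so the values describe these 6 mice.

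The lesser arm of miR-144 followed less closely. Between mmu-miR-451a and mmu-miR-144-5p, r was 0.90 (exact permutation p of 0.0444, adjusted 0.0972) and rho 0.54 (exact permutation p of 0.297, adjusted 0.446). Without M group replicates 2 and 3 that r was 0.0072, so the relation rests on those libraries. Between the arms of the same hairpin, mmu-miR-144-3p and mmu-miR-144-5p, r was 0.81 (exact permutation p of 0.0778, adjusted 0.117) and rho 0.49 (exact permutation p of 0.356, adjusted 0.485), and r was -0.16 without the same libraries.

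mmu-miR-144-5p was closest to another low-abundance strand, mmu-miR-486a-3p, with an r of 0.94 (exact permutation p of 0.00833, adjusted 0.0417), a rho of 0.94 (exact permutation p of 0.0167, adjusted 0.0833) and an r of 0.87 without M group replicates 2 and 3. The few reads of mmu-miR-486a-3p, 9 in J group replicate 3, limit that value. Of the 15 pairs, 3 had an adjusted p under 0.05 for r and 0 for rho. The lowest r of the 15 was 0.43, between mmu-miR-486b-3p and mmu-miR-486a-3p (exact permutation p of 0.4, adjusted 0.4), with a rho of 0.14 (exact permutation p of 0.803, adjusted 0.86).

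**Figure D3:**
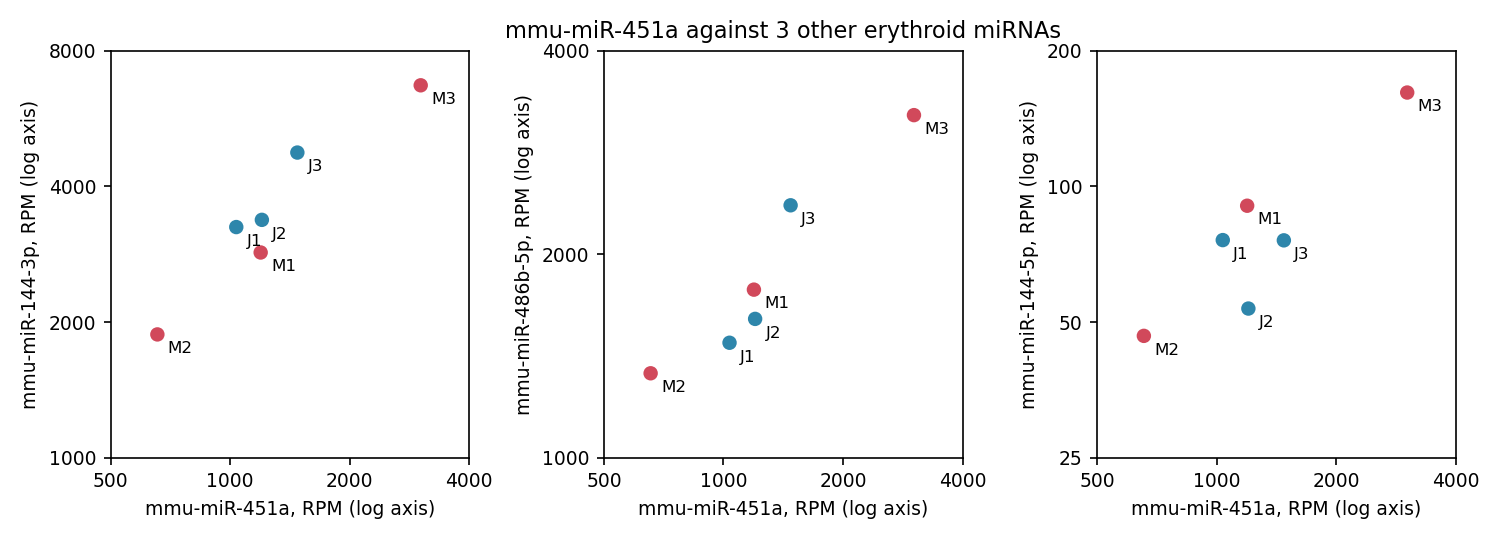
mmu-miR-451a against mmu-miR-144-3p, mmu-miR-486b-5p and mmu-miR-144-5p in RPM (log axes), 1 point per library, blue for the J group (J1 to J3) and red for the M group (M1 to M3). M2 and M3 lie at the ends of all 3 panels, and among the 4 libraries between them r is 0.96 for mmu-miR-486b-5p and 0.0072 for mmu-miR-144-5p.

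Compared with the rest of the table, 3 members were among the miRNAs closest to mmu-miR-451a over the 6 libraries. Of 259 other miRNAs with a mean of at least 10 RPM in both groups, mmu-miR-144-3p had the highest r to it, mmu-miR-486b-5p ranked 2 and mmu-miR-144-5p ranked 4, while the median r was 0.09. An r above 0.9 was found for 3 of the 259 (1.16%), the third being mmu-miR-130a-3p with 0.92. The other miRNAs nearest to mmu-miR-451a were mmu-miR-195a-5p (r of 0.87), mmu-miR-210-3p (0.87), mmu-miR-30e-3p (0.86) and mmu-miR-497a-5p (0.84). Their spread over the 6 libraries was smaller than that of mmu-miR-451a (SD of 0.72 on the log2 scale). It was lowest for mmu-miR-130a-3p, from 288 to 364 RPM (SD of 0.12), and highest for mmu-miR-497a-5p, from 24.0 to 54.0 RPM (SD of 0.40), near that of mmu-miR-486b-5p (SD of 0.48). Without M group replicate 3, the r to mmu-miR-451a was 0.94 for mmu-miR-144-3p, 0.86 for mmu-miR-486b-5p and 0.66 for mmu-miR-144-5p. Of the others it was 0.70 for mmu-miR-130a-3p, 0.48 for mmu-miR-195a-5p, 0.39 for mmu-miR-30e-3p, 0.84 for mmu-miR-210-3p, the hypoxia-induced miRNA, and 0.90 for mmu-miR-497a-5p, so that the latter then lay above mmu-miR-486b-5p and mmu-miR-144-5p.

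At the other end, mmu-miR-741-3p (r of -0.76), mmu-miR-690 (-0.70), mmu-miR-3073b-5p (-0.63), mmu-miR-802-5p (-0.63) and mmu-miR-10a-3p (-0.59) had the lowest r to mmu-miR-451a. For mmu-miR-690 the value was 0.03 without M group replicate 3. mmu-miR-802-5p, a liver miRNA known for its part in glucose metabolism, was highest in the library with the least mmu-miR-451a, M group replicate 2, at 869 RPM, and lowest in J group replicate 3 at 384 RPM. These correlations were taken as descriptions over 6 libraries, with no test.

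Ratios within a library do not depend on what else was sequenced. The ratio of mmu-miR-451a to mmu-miR-144-3p stayed between 0.31 and 0.45, with an SD of 0.21 on the log2 scale over the 6 libraries. It was 0.319, 0.356 and 0.31 in the J group mice and 0.418, 0.349 and 0.45 in the M group mice. The groups overlapped, and the J group minus M group difference of the log2 ratio was -0.30 (exact two-sided permutation p of 0.2, adjusted over 4 ratios 0.4, where 0.1 is the smallest p that 3 against 3 allows).

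Against miRNAs outside the erythroid group the ratio moved with the mouse. mmu-miR-451a over mmu-miR-23a-3p, a pair used in plasma to gauge haemolysis, was 0.773, 1.12 and 0.999 in the J group mice and 1.14, 0.368 and 1.65 in the M group mice. The M group ratios enclosed those of the J group, and the log2 difference was 0.11 (exact permutation p of 1). mmu-miR-451a was 0.496%, 0.516% and 0.639% of mmu-miR-122-5p in the J group mice and 0.511%, 0.25% and 1.29% in the M group mice, again with the extremes in the M group and a log2 difference of -0.0034 (exact permutation p of 1).

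Of the 4 ratios, that between the arms of miR-144 had groups that did not overlap. mmu-miR-144-5p was 2.34%, 1.59% and 1.60% of mmu-miR-144-3p in the J group mice and 3.17%, 2.48% and 2.41% in the M group mice. Each J group library lay below each M group library, with a log2 difference of -0.56. With 1 library left out it ran from -0.74 to -0.43, and groups that do not overlap cannot change sign in this way. The exact two-sided permutation p was 0.1, the smallest that 3 against 3 allows, and 0.4 after adjustment over the 4 ratios. Groups failed to overlap in 13 of the 119 hairpins whose arms could both be compared (10.9%), and 33 of the 119, miR-144 included, differed by at least as much as miR-144 in either direction. Counting error bears on the gap: as a share of the reads of both arms, mmu-miR-144-5p was 2.29% in J group replicate 1 (95% Wilson interval 2.05% to 2.54%). It was 2.35% in M group replicate 3 (2.19% to 2.53%) and 2.42% in M group replicate 2 (2.08% to 2.82%). J group replicate 1 could thus not be told apart from either of these M group libraries at this depth.

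**Figure D4:**
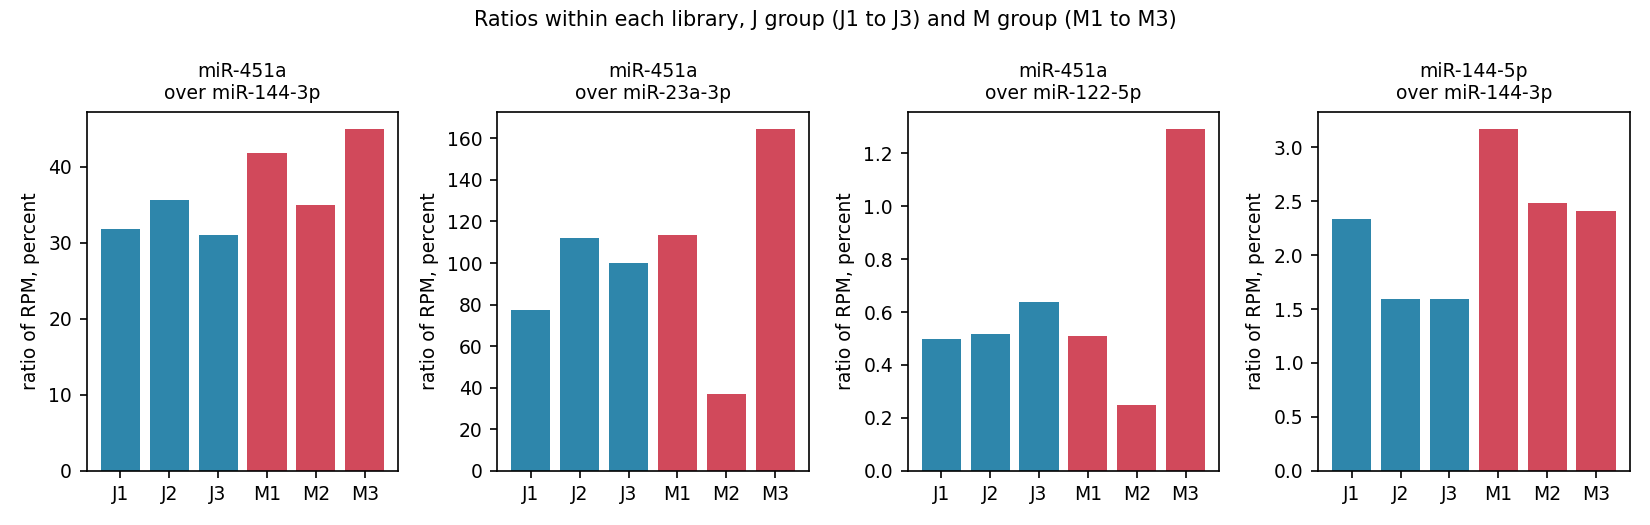
Ratio of RPM within each library in percent, for mmu-miR-451a over mmu-miR-144-3p, mmu-miR-23a-3p and mmu-miR-122-5p and for mmu-miR-144-5p over mmu-miR-144-3p, blue for the J group (J1 to J3) and red for the M group (M1 to M3). The first ratio varies least (31.0% to 45.0%), the middle ratios peak in M3 (165% and 1.29%), and in the last all J bars (up to 2.34%) are below all M bars (from 2.41%).

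mmu-miR-101a-3p, which shares bases 1 to 7 with mmu-miR-144-3p, varied less. It stood at 4452 ± 190 RPM across J group mice and 3859 ± 471 RPM across M group mice (SD, n = 3 each), and its SD over all 6 libraries was 0.17 on the log2 scale, against 0.63 for mmu-miR-144-3p. mmu-miR-144-3p exceeded mmu-miR-101a-3p in M group replicate 3 (6706 against 4003 RPM) and in J group replicate 3 (4756 against 4599 RPM), and was below it in the other 4 libraries, as with 1878 against 4241 RPM in M group replicate 2. mmu-miR-101b-3p, of the same family as mmu-miR-101a-3p, stood at 5717 to 8287 RPM and was above mmu-miR-144-3p in all 6 libraries.

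Other miRNAs that are abundant in red cells, several of them widely expressed, differed in how far they followed mmu-miR-451a. Of 10 tested, 1 passed the thresholds, mmu-miR-96-5p, lower in the J group (log2 fold change -1.60, adjusted p of 0.71 by limma), against 5.29% of all miRNAs tested. The median of the list was -0.64, against -0.13 for all miRNAs tested. Their summed level was 9285 to 10984 RPM across J group mice and 11405 to 18203 RPM across M group mice, highest in M group replicate 1. mmu-miR-16-5p, of the cell-cycle-restraining miR-15 family, was 3138 RPM in M group replicate 3 and 4323 RPM in M group replicate 1, and its r to mmu-miR-451a was 0.32. For mmu-miR-92a-3p r was -0.21, and for mmu-miR-25-3p it was 0.36. mmu-miR-210-3p had the highest r of this list (0.87) and the same lowest and highest libraries as mmu-miR-451a, at 15.5 RPM in M group replicate 2 and 31.4 RPM in M group replicate 3.

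The 4 miRNAs known to decline as erythroid cells mature (mmu-miR-150-5p, mmu-miR-155-5p, mmu-miR-221-3p and mmu-miR-222-3p) summed to 451.3 to 615 RPM across J group mice and 457 to 598 RPM across M group mice, 0 of 4 passed the thresholds, and their median log2 fold change was -0.12. M group replicate 3, with the most mmu-miR-451a, was inside the J group range for their sum, at 585 RPM, of which mmu-miR-221-3p was 456 RPM. In that library mmu-miR-150-5p was the lowest of the 6 (25.8 RPM, others 27.8 to 47.2 RPM) and mmu-miR-155-5p the highest (7.22 RPM, others 1.39 to 6.77 RPM).

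The summed levels of the marker lists of other blood and liver cells were not highest in M group replicate 3, where the erythroid miRNAs were, although among their single markers mmu-miR-223-3p, a myeloid miRNA, was (38.2 RPM, against 15.8 to 35.5 RPM in the other libraries). The 6 leukocyte miRNAs summed to 763 to 1103 RPM across J group mice and 1379 to 4782 RPM across M group mice, with M group replicate 1 highest. Of these, 1 of 6 passed the thresholds (mmu-miR-342-3p, log2 fold change -1.79, adjusted p of 0.64 by limma), and the list median was -0.82. Of all miRNAs tested 5.29% passed, with a median of -0.13. mmu-miR-142a-3p, a pan-leukocyte miRNA, was 444 RPM in M group replicate 1, 34.6 RPM in M group replicate 2 and 47.0 RPM in M group replicate 3. The sums of M group replicates 2 and 3 were close, 1458 and 1379 RPM. mmu-miR-342-3p (304 against 665 RPM) and mmu-miR-150-5p (25.8 against 38.7 RPM) were lower in replicate 3 than in replicate 2, whereas both arms of miR-142a and of miR-223 were higher there, as with 961 against 683 RPM for mmu-miR-142a-5p. The 5 biliary epithelium miRNAs of the miR-200 family summed to 950 to 2379 RPM across J group mice and 1203 to 4298 RPM across M group mice, again highest in M group replicate 1 and lowest of its group in M group replicate 3, with 0 of 5 past the thresholds and a median of -0.68.

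The 4 hepatocyte miRNAs summed to 329007 to 378100 RPM across J group mice and 333259 to 379781 RPM across M group mice (0 of 4 past the thresholds, median 0.08). M group replicate 2, with the fewest erythroid reads, was the highest of these sums, and M group replicate 3 stood at 337533 RPM. Of 2 endothelial miRNAs mmu-miR-126a-3p was in the table, at 4166 to 6718 RPM across J group mice and 4486 to 5579 RPM across M group mice (log2 fold change 0.09, not past the thresholds). The erythroid list itself, with 4 of its 5 miRNAs in the table, had 0 past the thresholds and a median of -0.13. The part of blood content in any group difference of these lists was not tested.

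**Figure D5:**
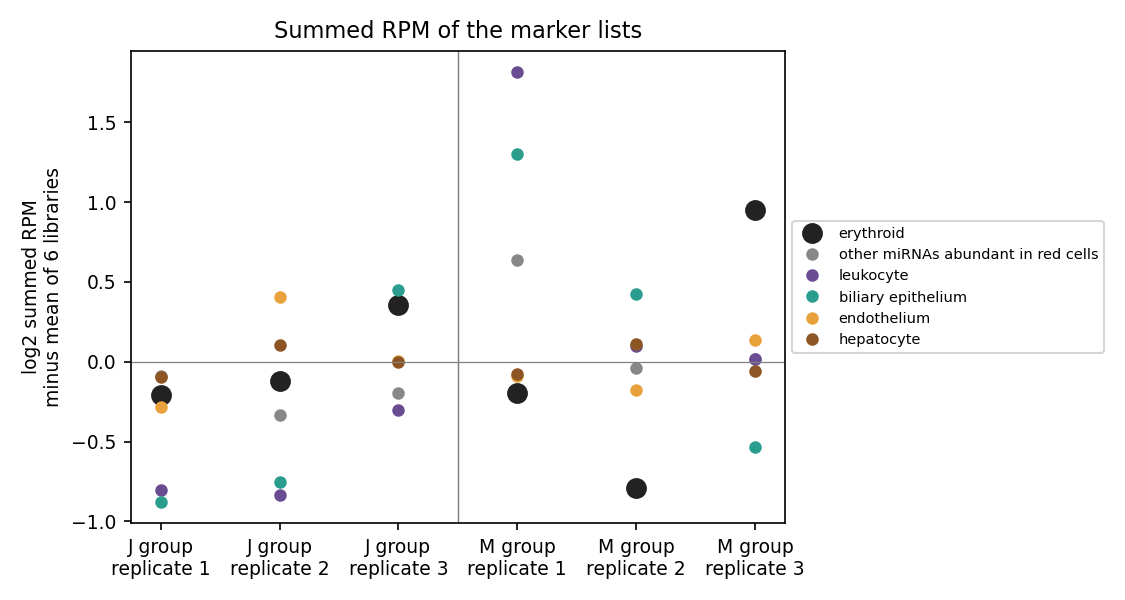
Log2 of the summed RPM of 6 marker lists in each library, minus the mean of that list over the 6 libraries. The erythroid list (large black points) is highest in M group replicate 3 (13098 RPM) and lowest in M group replicate 2 (3914 RPM), while the leukocyte (4782 RPM) and biliary (4298 RPM) lists are highest in M group replicate 1.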

How the data were processed

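The samples were liver small RNA of 3 J group and 3 M group mice, 1 library each, grouped by their labels. The authors made NEBNext small RNA libraries, filtered reads, matched them to Rfam and miRBase, and deposited RPM for known and predicted miRNAs (reads per 1000000 miRNA reads of the library), with replicates kept apart. The submitters' processing notes name mm9. Positions printed are those of GRCm38, matched by name, and none came from the table.

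All columns were mapped to a library. All values above 0 (100% within 0.01 read) were whole multiples of the RPM of 1 read, so reads were recovered, and edgeR on them called 45 miRNAs. The 548 entries whose mean exceeded 1 RPM in a group were compared with limma 3.58.1 in R 4.3.3 on log2(RPM + 1), with eBayes following the trend of variance with level and two-sided p. Calls needed an absolute log2 fold change above 0.3 and unadjusted p under 0.05, the study's thresholds, and adjusted p are Benjamini-Hochberg values over the 548. Ratios were compared by exact permutation, and correlations by exact permutation of pairings, each adjusted over its family. Intervals of log2 fold changes are 95% intervals from limma and include the spread between mice. Those of RPM and of shares of reads are 95% Wilson intervals, and the limit of 3 reads is 0.695 to 1.14 RPM. The Wilson intervals and this limit cover counting error only, as PCR copies were not told apart.

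Alternatives were 0.1 or 10 RPM added, no filter or a mean above 10 RPM, RPM taken without mmu-miR-122-5p, quantile normalization, scaling by median of ratios, mouse miRNAs alone, edgeR 4.0.16, DESeq2 1.42.0, a replicate term and each library left out. The text names the erythroid miRNAs, the miRNAs of their ratios, the marker lists, and the 5 other miRNAs with the highest and the 5 with the lowest r to mmu-miR-451a. It also names mmu-miR-101a-3p, added for its seed, and mmu-miR-101b-3p of the same family. The members and lists were chosen with earlier results of these data known. RefSeq sequences were matched by name for 3 of the 6 members. Python 3.11.15, numpy 2.4.6, pandas 2.3.3, scipy 1.17.1 and matplotlib 3.10.9 were used.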

Additional observations from a re-analysis of the deposited data

How the results depend on the processing

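None of the 6 erythroid miRNAs passed the thresholds under the 17 alternatives (16 for mmu-miR-486a-3p, which a mean above 10 RPM removed), except mmu-miR-144-3p without M group replicate 3. The count of miRNAs past the thresholds, 29, was 45 with edgeR and 24 to 36 under the other alternatives that kept all libraries. It ran from 21 to 45 with 1 library left out, the 45 being without M group replicate 2. With quantile normalization the log2 fold changes of mmu-miR-451a, mmu-miR-486b-5p and mmu-miR-486b-3p turned positive, at 0.26, 0.25 and 0.032, and that of mmu-miR-486b-3p was 0.0049 with median-of-ratios scaling. The cause was not tested. With 1 library left out, the fold changes ran from -0.63 to 0.47 for mmu-miR-451a, -0.23 to 0.69 for mmu-miR-144-3p, -0.83 to 0.056 for mmu-miR-144-5p, -0.43 to 0.21 for mmu-miR-486b-5p and -0.28 to 0.15 for mmu-miR-486b-3p. mmu-miR-486a-3p stayed negative (-0.73 to -0.20). The log2 ratio difference ran from -0.52 to 0.56 for mmu-miR-451a over mmu-miR-23a-3p and from -0.57 to 0.62 over mmu-miR-122-5p.

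For the correlations, r between mmu-miR-144-3p and mmu-miR-486b-5p was 0.94 with median-of-ratios scaling, with an adjusted exact permutation p of 0.0417. With 1 library left out, r ran from 0.93 to 0.98 for mmu-miR-451a with mmu-miR-144-3p, from 0.86 to 0.97 with mmu-miR-486b-5p, from 0.84 to 0.98 for mmu-miR-144-5p with mmu-miR-486a-3p, and from -0.42 to 0.66 for mmu-miR-486b-3p with mmu-miR-486a-3p. With 5 libraries none of the 3 pairs with an adjusted p under 0.05 kept it. Fewer pairings were then possible, and in some cases r also fell, as to 0.86 for mmu-miR-451a with mmu-miR-486b-5p without M group replicate 3. With the replicate number as a block, 27 miRNAs passed the thresholds and no call of an erythroid miRNA changed. Same-numbered J and M libraries had correlated deviations of 0.05, 0.06 and -0.01, so the numbers were not taken to pair the mice. Depth limits mmu-miR-486b-3p and mmu-miR-486a-3p, at 9 to 65 reads per library, while for the abundant members the spread between mice is far wider than counting error. The replicates are single mice, and 3 per group leave intervals of more than 2-fold in either direction for mmu-miR-451a.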

Other observations

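Within the miRNAs abundant in red cells, the members of the miR-183 cluster, also known from sensory cells and epithelia, were ordered differently across the libraries from mmu-miR-451a. mmu-miR-182-5p stood at 114, 218 and 487 RPM in J group replicates 1 to 3 and at 1117, 733 and 287 RPM in M group replicates 1 to 3. mmu-miR-183-5p stood at 37.1, 75.1 and 201 RPM in the J group and at 415, 245 and 115 RPM in the M group, in the same order of replicates. mmu-miR-96-5p, from the same cluster, stood at 142, 271 and 605 RPM in the J group and 1533, 864 and 493 RPM in the M group. All 3 were highest in M group replicate 1 and lowest in J group replicate 1, and the ranges of the groups overlapped. In M group replicate 3, where mmu-miR-451a was highest, they lay below the other M group libraries, and their r to mmu-miR-451a was -0.21, -0.11 and -0.06. Of the 5 epithelial markers of the miR-200 family, 4 were likewise highest in M group replicate 1 and lowest of the M group in replicate 3: mmu-miR-200a-3p stood at 378, 466 and 1033 RPM in the J group and 1921, 945 and 473 RPM in the M group, and mmu-miR-429-3p at 21.3, 22.3 and 43.5 RPM and at 77.7, 51.0 and 22.3 RPM, with mmu-miR-200b-3p and mmu-miR-200c-3p the others. mmu-miR-141-3p was not, at 74.9, 107.2 and 109.8 RPM in the J group and 103.2, 97.0 and 106.9 RPM in the M group. The part of epithelial content in these values was not tested. mmu-miR-363-3p was 118 RPM in M group replicate 1 and 0.232 to 2.10 RPM in the other libraries, below the limit of 3 reads in J group replicates 1 and 3.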
